A study of Arabidopsis thaliana with 6 samples.

Results

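Young siliques, the fruits that form from the ovary, were compared with open pollinated flowers of Arabidopsis thaliana on 4 Affymetrix ATH1 arrays out of the 6 in the series. The arrays were taken by their stage label alone, and every probe set other than the array's own controls was considered. Siliques were taken 2 d after pollination and freed of withering flower organs (2 arrays, called siliques 1 and siliques 2), and open flowers were taken complete (flowers 1 and flowers 2). All plants were of the accession Landsberg erecta, which carries the erecta allele, and were 6 weeks old; no other genotype or treatment was used. They grew at 21 °C and 70% humidity with 16 h of light and 8 h of darkness. Every sample pooled 12 plants, and about 10% of its tissue was cleared and staged under a microscope. The experiment was carried out a second time in full, so arrays with the same number come from the same run. The 2 arrays of closed buds entered the model for its estimate of the spread, and their values are given beside the leading genes.

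After pollination the petals and stamens wither and are shed, the ovary elongates into a green silique, and the ovules become seeds. The inner layer of the young seed coat starts to make proanthocyanidins, the tannins that later colour the seed. The open flower carries petals, anthers with mature pollen, and nectaries that secrete sugar. Because whole organs were measured, fewer cells of a type and less RNA per cell cannot be told apart.

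The deposited values were MAS5 signals, a linear scale of probe set brightness on which the trimmed mean of every array is the same. Median signals over all 6 arrays ran between 41.5 and 48.3. The 2 silique arrays correlated at r = 0.961 and the 2 flower arrays at r = 0.963 across the tested probe sets on the log2 scale, while silique and flower arrays correlated at 0.826 to 0.870. The ratio of the 3′ to the 5′ control probe sets of GAPDH, a sign of RNA integrity and labelling, was 0.835 and 0.864 in siliques and 0.967 and 1.02 in flowers. The groups did not overlap in it, and its part in the results was not tested. The spiked CreX-3 control read 3719 on siliques 2 and 1868 to 2374 on the other arrays.

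The stage labels were set against lists of 13 pollen, 12 petal, stamen and nectary, 15 seed, 9 carpel and valve, and 5 tapetum markers. Only markers with a probe set paired with 1 gene were measured. Most of the petal, seed and carpel lists went unchecked. The 4 measured markers of petals, stamens and nectaries summed to 51.3 and 51.0 in siliques and to 2158 and 3096 in flowers, and all 4 were called lower in siliques. Of 8 measured pollen markers 6 were tested, 3 fell and none rose. The summed signal of the 8 was 81.5 and 178 in siliques and 466 and 515 in flowers. Siliques 2 thus carried more pollen-marker signal than siliques 1, and the flower arrays lay above both. Of the 15 listed markers of the seed coat, ovule and young seed 4 were measured and 2 tested. BAN, a gene of the seed coat, was called higher in siliques, and INO, a gene of the outer ovule integument, was not called, with 55.1 and 76.1 in siliques and 77.6 and 67.6 in flowers (log2 change -0.14). AGL62, an endosperm gene, and IKU2 were near the level of untargeted controls on every array. None of the 3 carpel and valve markers tested passed in limma, with unadjusted p of 0.0360 for ALC, 0.475 for SPT and 0.00874 for YAB3, and sums of 401 and 374 in siliques and 355 and 274 in flowers. With the replicate number as a block in the fit, ALC passed as higher in siliques and YAB3 as lower (adjusted p = 0.0441 and 0.0433). The 5 tapetum markers, from the layer that feeds developing pollen, summed to 307 and 296 in siliques and 302 and 312 in flowers, against 2910 and 4105 in buds, and none passed between siliques and flowers. Most of the silique and flower sums came from SWEET8 and from EMS1, which at 145 and 185 was not raised in buds. AT5G07230, SHT and ATA27 passed the filter only through buds. Except for ATA27 on flowers 2 (49.6), their silique and flower signals were within the range of untargeted controls. Their lack of calls thus says little about tapetum in siliques and flowers.

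Of 22746 probe sets that were not controls, 12075 reached a signal of 50 on at least 2 of the 6 arrays and were tested. A probe set was called when limma's adjusted p was under 0.05. In siliques 873 probe sets (7.23%) were called higher and 900 (7.45%) lower than in flowers, 1773 (14.7%) in all. Genes named by rule had to show no overlap between silique and flower arrays, so remarks of no overlap add no support for them. The rises were smaller than the falls, with a median log2 change of 0.86 among those called higher and −1.41 among those called lower. A log2 change of at least 1 was reached by 304 probe sets called higher and 673 called lower, and a change of at least 3 by 18 and 51. The median over all tested probe sets was 0.02, and 3813 of the 12075 had an unadjusted p under 0.05. Counts within the gene groups below are to be read against these values and shares of all tested probe sets. The second-highest signals closest to the threshold were 50.02 among the probe sets kept and 49.98 among those left out.

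The counts of calls leaned on each of the 4 arrays. Without siliques 1 there were 80 calls higher and 171 lower, without siliques 2 there were 224 and 441, without flowers 1 there were 114 and 235, and without flowers 2 there were 106 and 166. With no filter on low signal the counts were 533 higher and 629 lower. Gene names in the tables used here covered part of the array: 1015 tested probe sets had a symbol or name, of which 111 were called higher and 83 lower.

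**Figure D1:**
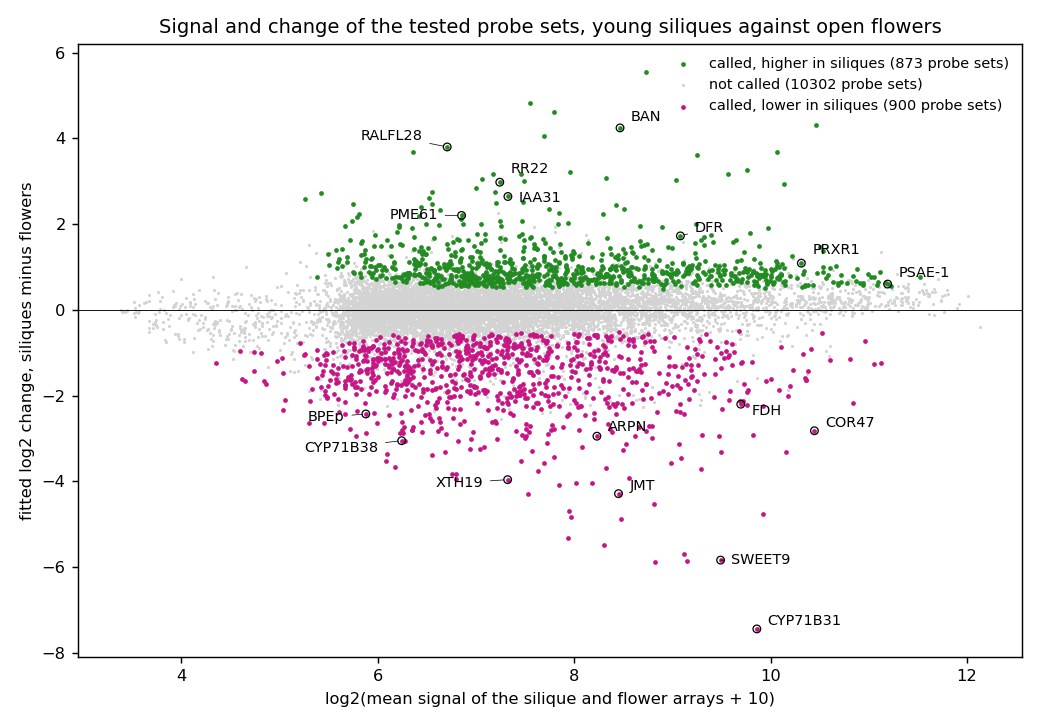
Each point is 1 of the 12075 tested probe sets, with log2 of its mean signal over the silique and flower arrays plus 10 on the horizontal axis and its fitted log2 change, siliques minus flowers, on the vertical axis. Green points are the 873 called higher in siliques, grey points were not called, and magenta points are the 900 called lower, which reach further from 0 than the rises do; some genes named in the text are ringed.

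Genes of proanthocyanidin and cuticle formation were among those called higher in siliques. BAN, the anthocyanidin reductase that commits flavonoids to seed coat tannins, had signals of 665 and 658 in siliques and 17.3 and 35.9 in flowers, a log2 change of 4.25 ± 0.26 (± is limma's standard error here and after every log2 change; adjusted p = 0.00154). DFR, the dihydroflavonol reductase upstream of it, had 748 and 894 in siliques and 205 and 281 in flowers (log2 change 1.73 ± 0.19, adjusted p = 0.00521). CHIL, a chalcone isomerase-like protein that promotes flux into the pathway, had 348 and 314 in siliques and 84.9 and 137 in flowers (log2 change 1.53 ± 0.36, adjusted p = 0.0387). BAN was close to the background of the array in buds, at 0.850 and 0.617, DFR was low there at 14.6 and 15.7, and CHIL at 185 and 388 in buds overlapped the siliques. These were the 3 of 6 tested flavonoid genes that rose, with none lower and a list median of 1.26. The flavonoid glycosyltransferases in the list did not pass: UGT78D1 had a log2 change of 1.00, UGT78D2 of -0.90 and UF3GT of -1.34. With the replicate block all 3 passed (adjusted p = 0.0291, 0.0225 and 0.0447), which made 4 flavonoid genes higher and 2 lower.

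SHN3, a SHINE transcription factor of the AP2/ERF family that promotes cuticle formation, had signals of 295 and 264 in siliques and 88.5 and 69.0 in flowers (log2 change 1.71 ± 0.24, adjusted p = 0.00965). CER26, which takes part in the elongation of wax precursors, had 93.8 and 64.3 in siliques and 2.86 and 20.1 in flowers (log2 change 2.16 ± 0.49, adjusted p = 0.0351). DEWAX, a repressor of wax synthesis, had 52.3 and 54.9 in siliques and 201 and 84.3 in flowers and did not pass (log2 change -1.15, adjusted p = 0.126). The silique and flower arrays did not overlap for any of these 3 genes. BAN and DFR kept their calls under every alternative and without any 1 array. The call was lost for CHIL and CER26 without any 1 of the 4 silique and flower arrays, and SHN3 without siliques 1 or flowers 2 (adjusted p 0.0502 to 0.178), and for CER26 and CHIL under at least 1 of an offset of 1 and no filter (adjusted p 0.0530 to 0.0663).

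**Figure D2:**
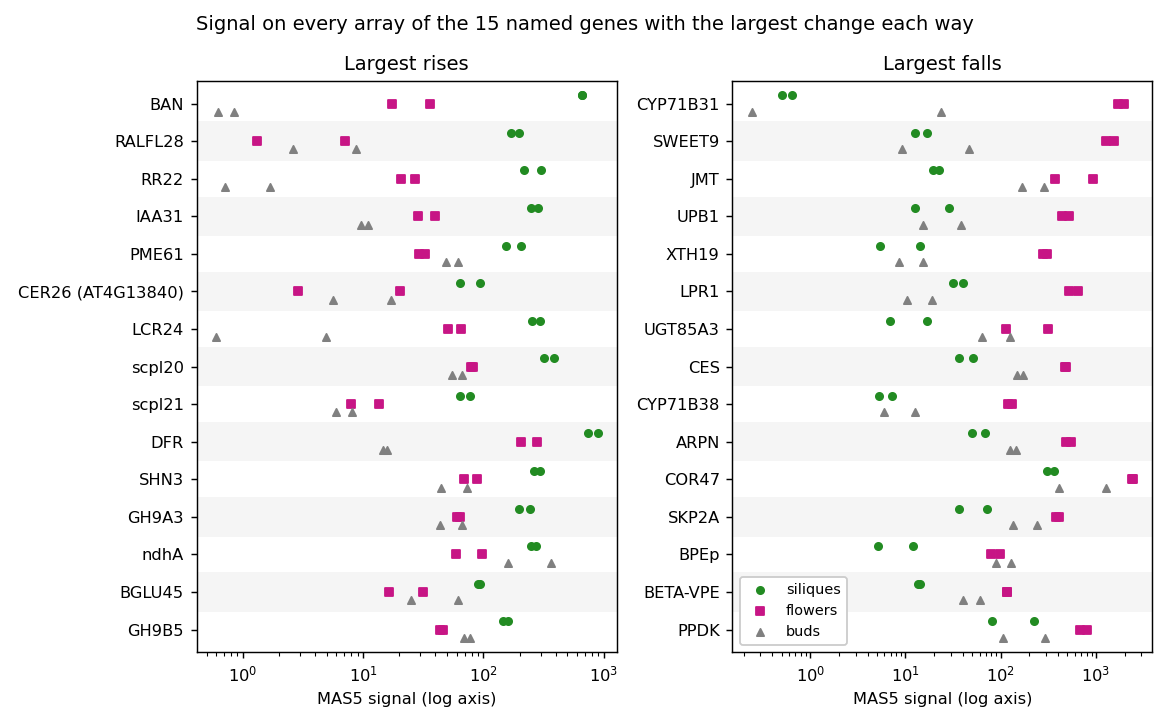
The MAS5 signal (log axis) of the 15 named genes with the largest rise and the 15 with the largest fall, with green circles for siliques, magenta squares for flowers and grey triangles for buds, 2 arrays each. In every row the silique and flower points stay apart, which the choice of these genes required. The bud points lie below both stages for 6 rises and between them for 6 falls.

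Small secreted cysteine-rich peptides changed in both directions: of 13 tested, 4 rose, 3 fell and 6 were not called, with a median log2 change of 0.13. RALFL peptides are alkalinization factors read by cell-surface receptor kinases, and LCR peptides are small and defensin-like. RALFL28 had signals of 199.6 and 169.9 in siliques and 1.31 and 7.13 in flowers (log2 change 3.80 ± 0.33, adjusted p = 0.00260), where the flower arrays were within the range of untargeted control probe sets. This put RALFL28 at least 21.6-fold higher in siliques by linear signal. LCR24 had 298 and 254 in siliques and 64.8 and 50.9 in flowers (log2 change 2.08 ± 0.23, adjusted p = 0.00523), and only 0.596 and 4.87 in buds. RALFL31 also rose, with 119 and 108 in siliques and 53.0 and 60.5 in flowers.

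RALFL25 and RALFL26, which lie next to each other in the genome, both fell. RALFL25 had 59.2 and 166 in siliques and 552 and 491 in flowers (log2 change -2.27 ± 0.59, adjusted p = 0.0484, and 0.0575 with the replicate block, which ends the call). RALFL26 had 114 and 223 in siliques and 928 and 796 in flowers (log2 change -2.36 ± 0.51, adjusted p = 0.0316). For both peptides siliques 2 was higher than siliques 1, the array with the lower pollen-marker sum, and the part of pollen in their fall was not tested.

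LCR68 and LCR72 are neighbours as well, yet their changes ran in opposite directions. LCR68 had signals of 614 and 638 in siliques and 304 and 429.9 in flowers (log2 change 0.77 ± 0.19, adjusted p = 0.0451), whereas LCR72 had 40.7 and 67.3 in siliques and 279 and 246 in flowers (log2 change -2.12 ± 0.27, adjusted p = 0.00753). RALFL28 and LCR72 kept their calls throughout. Leaving out an array ended the call for RALFL31, RALFL25 and RALFL26 without any 1 of the 4 silique and flower arrays, LCR24 without siliques 1, and LCR68 without any 1 of the 4 silique and flower arrays or without buds 2 (adjusted p 0.0510 to 0.214). Other processing ended it for LCR24, RALFL25, LCR68 and RALFL26 under at least 1 of an offset of 1, no filter, quantile normalization, cyclic loess normalization, no intensity trend and robust shrinkage (adjusted p 0.0522 to 0.0796).

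Hormone genes were led by a cytokinin response regulator and an auxin repressor. RR22, a response regulator of the cytokinin phosphorelay known from the seed stalk and chalaza, had signals of 301 and 217 in siliques and 20.7 and 27.0 in flowers (log2 change 2.98 ± 0.24, adjusted p = 0.00225), and only 1.68 and 0.704 in buds. IAA31, an Aux/IAA repressor of auxin responses, had 286 and 247 in siliques and 28.8 and 40.0 in flowers (log2 change 2.65 ± 0.20, adjusted p = 0.00186). Another repressor of that family, IAA18, fell, with 80.4 and 84.8 in siliques and 192 and 167 in flowers (log2 change -1.03 ± 0.16, adjusted p = 0.0139). No silique array overlapped a flower array for these 3 genes. RR16, the other of 2 cytokinin genes tested, did not pass in limma (log2 change -1.30, adjusted p = 0.140).

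Enzymes that take auxin out of the active pool by conjugation differed in direction. GH3.3, which joins auxin to amino acids, had 437 and 501 in siliques and 171 and 217 in flowers (log2 change 1.24 ± 0.19, adjusted p = 0.0139). Its family member GH3.17 had 35.5 and 106 in siliques and 414 and 269 in flowers (log2 change -2.24 ± 0.45, adjusted p = 0.0267). IAGLU, an auxin glucosyltransferase, had 38.3 and 39.4 in siliques and 175 and 299.8 in flowers (log2 change -2.29 ± 0.25, adjusted p = 0.00492). GH3.3 was thus higher and the other 2 enzymes lower in siliques, and GH3.17 and IAGLU were also low in buds, at 55.4 and 36.8 and 25.5 and 25.1. Of the 6 auxin genes tested 2 rose and 3 fell, with a median log2 change of −0.44.

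Outside that list, UGT74D1, a glucosyltransferase that accepts auxins, had 65.5 and 56.2 in siliques and 145 and 227 in flowers (log2 change -1.44, adjusted p = 0.0141). SKP2A, an F-box protein that binds auxin and marks cell-cycle factors for degradation, had 36.7 and 71.6 in siliques and 383 and 412 in flowers (log2 change -2.72 ± 0.34, adjusted p = 0.00731). Both were called lower in siliques. RR22, IAA31, IAGLU and SKP2A kept their calls throughout, and the call ended for GH3.3 and IAA18 without any 1 of the 4 silique and flower arrays, GH3.17 without siliques 1, flowers 1 or flowers 2, and UGT74D1 without siliques 1, siliques 2 or flowers 2 (adjusted p 0.0502 to 0.135).

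Cell wall genes called higher included enzymes acting on pectin, cellulose and wall acetylation. PME61, a pectin methylesterase, had signals of 205 and 155 in siliques and 33.0 and 29.0 in flowers (log2 change 2.20 ± 0.20, adjusted p = 0.00285). Of 9 tested endoglucanases of glycosyl hydrolase family 9, 3 rose and 1 fell (median 0.30). GH9A3 had 243 and 199 in siliques and 60.5 and 63.7 in flowers, GH9B5 had 159.7 and 147 in siliques and 43.8 and 46.0 in flowers, and GH9B7 had 566 and 519 in siliques and 206 and 209.6 in flowers. Their log2 changes were 1.68 ± 0.21, 1.57 ± 0.15 and 1.34 ± 0.14 (adjusted p = 0.00753, 0.00316 and 0.00421). GH9A4 was the member that fell, with 34.8 and 65.4 in siliques and 212 and 202 in flowers (log2 change -1.90 ± 0.33, adjusted p = 0.0187).

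The TRICHOME BIREFRINGENCE-LIKE proteins acetylate wall polysaccharides. Of 12 tested, 4 rose, none fell and the median log2 change was 0.46. TBL36 had signals of 309 and 201 in siliques and 86.2 and 81.7 in flowers (log2 change 1.46 ± 0.22, adjusted p = 0.0123), and TBL41, TBL26 and TBL25 had log2 changes of 1.28, 1.27 and 0.85. SKU5 and COB, both anchored at the cell surface and needed for oriented cell growth, rose as well. SKU5 had 1255 and 1001 in siliques and 587 and 538 in flowers (log2 change 0.98 ± 0.18, adjusted p = 0.0222). COB had 754 and 617 in siliques and 365 and 338 in flowers (log2 change 0.94 ± 0.16, adjusted p = 0.0167).

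Genes of wall loosening went both ways. XTH19, a xyloglucan endotransglucosylase, had 5.36 and 14.1 in siliques and 305 and 276 in flowers (log2 change -3.96 ± 0.29, adjusted p = 0.00155), the only called gene of 6 xyloglucan enzymes tested. With the replicate block XTH32 also passed, as higher (log2 change 1.05, adjusted p = 0.0179). EXLA2, an expansin-like protein, had 316 and 285 in siliques and 109 and 82.5 in flowers (log2 change 1.57 ± 0.22, adjusted p = 0.0103). EXPA4, an expansin, had 186 and 221 in siliques and 410.2 and 417 in flowers (log2 change -0.99 ± 0.15, adjusted p = 0.0120). EXLA2 was therefore higher and EXPA4 lower, with the other 5 of 7 expansins not called. The replicate block added EXLA1 to the falls (log2 change -1.08, adjusted p = 0.0416). Among the CSLC synthases of the xyloglucan backbone, CSLC8 (ATCSLC08) rose by 0.92 and CSLC12 fell, with a log2 change of -1.08.

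PME61, GH9B5, GH9B7 and XTH19 kept their calls throughout. Calls ended when arrays were left out for GH9A4, TBL36, TBL41, EXPA4, SKU5 and COB without siliques 1, flowers 1 or flowers 2, TBL25, ATCSLC08 and CSLC12 without any 1 of the 4 silique and flower arrays, GH9A3 without siliques 1, TBL26 without siliques 1, siliques 2 or flowers 1, and EXLA2 without siliques 1 or flowers 2 (adjusted p 0.0616 to 0.156). They also ended for TBL25, CSLC12 and SKU5 under at least 1 of no filter and cyclic loess normalization (adjusted p 0.0504 to 0.0508).

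Serine carboxypeptidase-like proteins are vacuolar or secreted enzymes, some of which act as acyltransferases. Of 18 tested, 4 rose and 2 fell (median 0.25), and with the replicate block 5 rose and 3 fell. The largest rise was that of scpl20, with signals of 391 and 323 in siliques and 79.5 and 82.0 in flowers (log2 change 2.01 ± 0.16, adjusted p = 0.00225). scpl21 had 77.9 and 63.4 in siliques and 13.5 and 7.99 in flowers (log2 change 1.97 ± 0.29, adjusted p = 0.0113), and SCPL27 and SCPL34 had log2 changes of 1.52 and 1.17. The largest fall was that of scpl48, with 318 and 316 in siliques and 1326 and 1085 in flowers (log2 change -1.89 ± 0.15, adjusted p = 0.00218), and scpl35 fell by a log2 change of -0.67. In buds scpl48 was at 984 and 956, close to the flower arrays, while scpl35 was at 177 and 142, below both later stages.

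Other proteases included an enzyme of seed protein maturation. BETA-VPE, a vacuolar processing enzyme that matures storage proteins, had 13.6 and 14.2 in siliques and 118 and 116 in flowers (log2 change -2.41 ± 0.21, adjusted p = 0.00285). The subtilase SBT4.13 had 64.9 and 56.9 in siliques and 313 and 307 in flowers (log2 change -2.18 ± 0.17, adjusted p = 0.00218). Both were lower in siliques without overlap, and SBT4.13 was higher still in buds, at 447 and 583. The subtilase SBT1.3 rose, with 1380.1 and 1340.0 in siliques and 839 and 876 in flowers, and the aspartic protease APA1 fell, with 1177 and 1205 in siliques and 1808 and 1679.7 in flowers. Over the 27 tested proteases of the list, which includes the carboxypeptidases but not APA1, 5 rose and 4 fell, a median of 0.14. With the replicate block 6 rose and 7 fell.

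Beta-glucosidases of the BGLU family, which release aglycones from stored glucosides, contributed 4 rises. BGLU45, an enzyme of monolignol glucosides, had 94.2 and 90.5 in siliques and 31.8 and 16.5 in flowers (log2 change 1.62 ± 0.38, adjusted p = 0.0378). BGLU15 had 164 and 189 in siliques and 52.9 and 71.5 in flowers (log2 change 1.38 ± 0.19, adjusted p = 0.00939), and BGLU40 and BGLU33 had log2 changes of 0.76 and 0.75. BGLU36 had 53.5 and 127 in siliques and 426 and 322 in flowers and did not pass (log2 change -2.03, adjusted p = 0.0510). The list of glucosinolate and BGLU genes had 13 tested members with 4 higher and 2 lower, and both falls were the glucosinolate importers described with the transporters.

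Calls of scpl20, scpl48, SBT4.13 and BETA-VPE held throughout. Without single arrays, calls ended for SCPL34, scpl35, SBT1.3, BGLU45, BGLU40 and GTR1 without any 1 of the 4 silique and flower arrays, SCPL27 and GTR2 without siliques 1, flowers 1 or flowers 2, scpl21 without siliques 1, siliques 2 or flowers 2, APA1 without any 1 of the 4 silique and flower arrays or without buds 2, BGLU15 without siliques 1, siliques 2 or flowers 1, and BGLU33 without any 1 of the 6 arrays (adjusted p 0.0502 to 0.216). With other processing they ended for scpl35, SBT1.3, APA1, BGLU45, BGLU33 and GTR1 under at least 1 of no filter, quantile normalization, cyclic loess normalization, a fit of the silique and flower arrays alone and no intensity trend (adjusted p 0.0510 to 0.0861).

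Genes of peroxide and glutathione metabolism changed in both directions. PRXR1, a secreted class III peroxidase, had signals of 1819 and 1628 in siliques and 824 and 782 in flowers (log2 change 1.09 ± 0.17, adjusted p = 0.0133). TAPX, the ascorbate peroxidase of thylakoids, had 248 and 271 in siliques and 115 and 172 in flowers (log2 change 0.83 ± 0.21, adjusted p = 0.0442). Both peroxidases rose, and the other 4 of 6 tested did not pass. Among the called falls were 3 enzymes that regenerate reduced antioxidants. ATMDAR2, a monodehydroascorbate reductase, had 107 and 97.7 in siliques and 307 and 333 in flowers (log2 change -1.55 ± 0.14, adjusted p = 0.00314). GR1, a glutathione reductase, had 424 and 618 in siliques and 864 and 1212 in flowers (log2 change -0.99 ± 0.25, adjusted p = 0.0452). SRX, the sulfiredoxin that repairs oxidised peroxiredoxin, had 132 and 99.5 in siliques and 222 and 217 in flowers (log2 change -0.88 ± 0.17, adjusted p = 0.0234). Siliques lay below flowers on every array for these 3 genes, which were chosen for description after their values were seen.

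Of 7 glutathione transferases tested 2 rose and 3 fell, and with the replicate block 1 rose and 3 fell. GSTU20 had 731 and 387 in siliques and 204 and 170.3 in flowers (log2 change 1.47 ± 0.38, adjusted p = 0.0482, and 0.0563 with the replicate block, which ends the call). GSTF4 rose with a log2 change of 0.98. GSTU18 had 151 and 194 in siliques and 379.6 and 574 in flowers (log2 change -1.40 ± 0.26, adjusted p = 0.0219), and GSTU16 and GSTU26 had log2 changes of -1.15 and -1.76. UGT85A3, a glycosyltransferase, had 6.84 and 16.8 in siliques and 114 and 312 in flowers (log2 change -3.24 ± 0.51, adjusted p = 0.0139). Of 16 tested genes matched as glycosyltransferases of this UGT type by name, only UGT85A3 and UGT74D1 were called, both lower in siliques, and with the replicate block 1 was higher and 4 lower. The match leaves out relatives listed under other names, such as IAGLU. ATMDAR2 kept its call throughout. Leaving out arrays ended calls for GSTU20, GSTF4, GSTU16, GSTU26 and SRX without any 1 of the 4 silique and flower arrays, PRXR1 without siliques 1, flowers 1 or flowers 2, TAPX without any 1 of the 4 silique and flower arrays or without buds 2, GSTU18 without siliques 1, siliques 2 or flowers 2, GR1 without any 1 of the 6 arrays, and UGT85A3 without siliques 1 or flowers 2 (adjusted p 0.0508 to 0.209). Other settings ended those of GSTU20, TAPX, GSTU16, GSTU26 and GR1 under at least 1 of an offset of 32, no filter, quantile normalization, cyclic loess normalization, a fit of the silique and flower arrays alone, no intensity trend and robust shrinkage (adjusted p 0.0501 to 0.0787).

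Nuclear genes of the photosynthetic apparatus were among the small rises. Of 14 tested genes for photosystem, light-harvesting and other thylakoid proteins, 9 were called higher and none lower, with a median log2 change of 0.64 over all 14. The 9 include TAPX, which is also counted with the peroxidases above. PSAE-1, a stromal subunit of photosystem I, had signals of 2784 and 2840.1 in siliques and 1828 and 1870.2 in flowers (log2 change 0.60 ± 0.15, adjusted p = 0.0444). PSAN, on the lumenal side of the same complex, had 1778 and 1995 in siliques and 1108 and 1145 in flowers (log2 change 0.74 ± 0.13, adjusted p = 0.0212). LHCB4.2, a minor antenna protein of photosystem II, had 1039.8 and 912 in siliques and 514 and 588 in flowers (log2 change 0.81 ± 0.15, adjusted p = 0.0234). These were bright on every array, and siliques exceeded flowers without overlap.

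PSBY and PSB27, a subunit and an assembly factor of photosystem II, had log2 changes of 0.58 and 0.68, and LHCB4.3 of 0.79. TROL, which tethers ferredoxin reductase to the membrane, had 790.3 and 1013 in siliques and 440.0 and 584 in flowers (log2 change 0.81 ± 0.20, adjusted p = 0.0424), and CURT1C, which bends thylakoid membranes, had a log2 change of 0.77. CaS, a calcium-sensing protein of the thylakoid membrane, had 575 and 579.7 in siliques and 204 and 282 in flowers (log2 change 1.23 ± 0.18, adjusted p = 0.0112). Of 5 tested nuclear genes for the chloroplast NADH dehydrogenase-like complex and its assembly, the subunits NdhN (0.93) and NdhL (0.86) and the assembly factor CRR41 (0.96) rose on the log2 scale and none fell. In carbon fixation limma called none of PRK, SBPASE and RCA. An unadjusted p under 0.05 was reached by 1 of the 3, against 3813 of all 12075 tested probe sets. PRK, with the largest change of the 3, had 1765 and 1779 in siliques and 967 and 1331 in flowers (log2 change 0.64, adjusted p = 0.0833). With the replicate block PRK and SBPASE passed as higher (adjusted p = 0.0366 and 0.0366), 2 of the 3.

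In the pathway to chlorophyll 6 of 8 tested genes were called higher and none lower, with a median of 0.91. GSA1 forms the first precursor of tetrapyrroles, and it had signals of 453 and 516 in siliques and 232 and 282 in flowers (log2 change 0.89 ± 0.23, adjusted p = 0.0486). HEME1, a uroporphyrinogen decarboxylase, had 319 and 332 in siliques and 132 and 136 in flowers (log2 change 1.22 ± 0.19, adjusted p = 0.0142), and its partner HEME2 had a log2 change of 0.93. CHLI2, a subunit of the magnesium chelatase that commits the pathway to chlorophyll, had 212 and 209 in siliques and 70.3 and 94.9 in flowers (log2 change 1.26 ± 0.18, adjusted p = 0.0102). All 4 named here were higher in siliques than in flowers on every array. The next enzyme CHLM and the light-harvesting-like LIL3:2 followed with 0.78 and 0.84 on the log2 scale. HEMB1 (0.75) and the protochlorophyllide reductase PORB (0.96, adjusted p = 0.119) did not pass. Both passed with the replicate block, at 0.0304 and 0.0439.

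None of these chloroplast calls held without every array. They ended for PSAE-1, PSAN, PSB27, LHCB4.2, LHCB4.3, CURT1C, HEME1, HEME2, CHLM, GSA1, LIL3:2 and CRR41 without any 1 of the 4 silique and flower arrays, PSBY, TROL and NdhL without any 1 of the 6 arrays, CHLI2 without siliques 1 or flowers 1, CaS without siliques 1, siliques 2 or flowers 1, and NdhN without siliques 1, flowers 1 or flowers 2 (adjusted p 0.0503 to 0.256). Processing ended those of GSA1, PSAE-1, PSBY, PSB27, LHCB4.3, TROL, HEME2, LIL3:2, NdhL and CRR41 under at least 1 of an offset of 1, no filter, quantile normalization, cyclic loess normalization, a fit of the silique and flower arrays alone and no intensity trend (adjusted p 0.0505 to 0.281). Buds were at 1219 and 1279 for PSAN, between the stages, and at 754 and 852 for LHCB4.2, likewise between them.

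Genes encoded by the plastid genome shifted upward more unevenly. Of 52 tested, 13 were called higher and none lower, where 7.23% of all tested probe sets were called higher and 7.45% lower. Several called genes carry close locus numbers, such as rpl14, rpl16, rpl22 and rpoA, or psaC, ndhI and ndhA. Whether the 52 changed independently of each other was not tested. A positive change was found in 49 of the 52, with a median of 0.87 against 0.02 over all tested probe sets. The size differed between the runs: the median log2 change was 0.53 in replicate 1 and 1.17 in replicate 2. ndhI, a subunit of the NADH dehydrogenase-like complex, had signals of 1389 and 1513 in siliques and 742 and 568 in flowers (log2 change 1.15 ± 0.17, adjusted p = 0.0114). ndhA, from the same complex, had 247 and 276 in siliques and 98.4 and 59.7 in flowers (log2 change 1.64 ± 0.38, adjusted p = 0.0372), and it was as high in buds, at 161 and 363. psbH, a photosystem II subunit, had 773 and 905 in siliques and 391 and 319 in flowers (log2 change 1.22 ± 0.25, adjusted p = 0.0275). For each of these genes flowers 2 was the lowest of the 4 arrays.

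The called plastid genes served photosynthesis and plastid gene expression alike. The ribosomal protein gene rpl16 had 139 and 149 in siliques and 58.3 and 31.6 in flowers (log2 change 1.53 ± 0.25, adjusted p = 0.0159), and rpl14 and rpl22 had log2 changes of 1.13 and 0.99. The polymerase gene rpoA had 490.3 and 509 in siliques and 268 and 225 in flowers (log2 change 1.00 ± 0.16, adjusted p = 0.0141). Its partner rpoC1 had a log2 change of 1.35 (adjusted p = 0.0471, and 0.0536 with the replicate block, which ends the call). The photosystem I genes psaC and psaA had log2 changes of 1.31 and 1.01 (adjusted p = 0.0446 and 0.0430), and their calls also ended with the block, at 0.0531 for psaC and just above 0.05 for psaA. psaJ (0.71), cemA (1.22) and petA (0.82), which encodes cytochrome f, complete the 13.

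Other plastid genes were not called. rbcL, the large subunit of Rubisco, had 48.6 and 65.5 in siliques and 70.7 and 44.2 in flowers (log2 change 0.01, adjusted p = 0.987), with overlapping arrays. psbA, a reaction centre protein of photosystem II, had 131 and 136 in siliques and 329.9 and 132 in flowers (log2 change -0.62, adjusted p = 0.328). The largest plastid change, that of psbI, did not pass, with 299.7 and 257 in siliques and 152 and 24.7 in flowers (log2 change 1.94, adjusted p = 0.101). Calls ended without arrays for ndhA, rpoC1, psaC, psbH, psaA, rpoA, rpl22 and petA without any 1 of the 4 silique and flower arrays, rpl16, cemA, ndhI and rpl14 without siliques 1, siliques 2 or flowers 2, and psaJ without any 1 of the 6 arrays (adjusted p 0.0512 to 0.196). Other processing ended the calls of rpoC1, ndhA, psaC, cemA, psaA, rpl22 and psaJ under at least 1 of an offset of 1, no filter, quantile normalization, cyclic loess normalization, a fit of the silique and flower arrays alone, no intensity trend and robust shrinkage (adjusted p 0.0505 to 0.116).

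**Figure D3:**
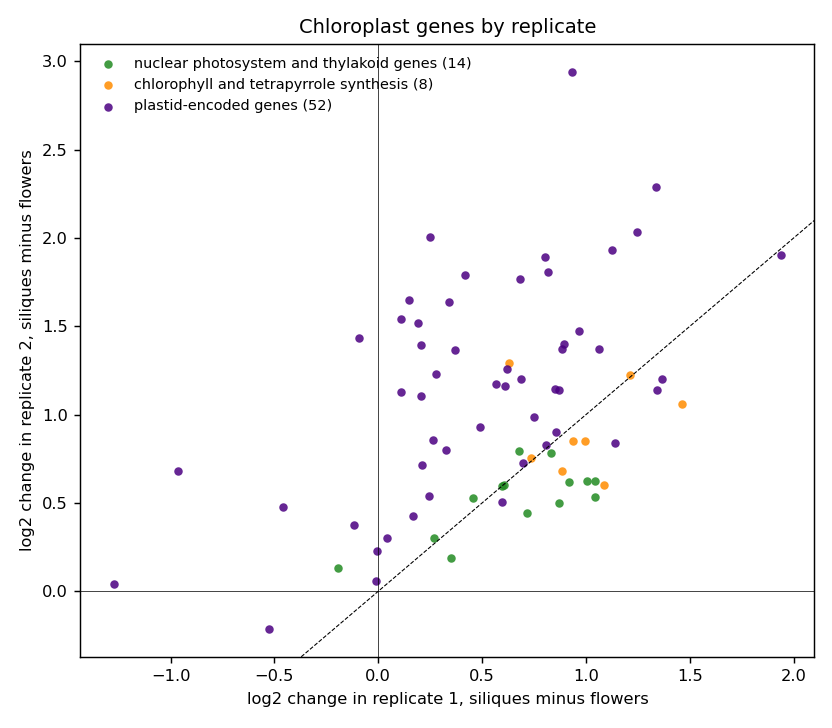
Each point is 1 tested chloroplast gene, with its log2 change (siliques minus flowers) in replicate 1 on the horizontal axis and in replicate 2 on the vertical axis; the dashed line marks equal change. The 14 nuclear photosystem and thylakoid genes and the 8 genes of chlorophyll synthesis lie near the line. Most of the 52 plastid-encoded genes lie above it, with medians of 0.53 in replicate 1 and 1.17 in replicate 2.

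The largest falls included genes known from petals, nectaries and stamens. Siliques had been freed of withering flower organs, and the part of this in the falls was not tested. CYP71B31, a cytochrome P450, had signals of 0.636 and 0.500 in siliques and 1695 and 1983 in flowers (log2 change -7.45 ± 0.50, adjusted p = 0.00154). By linear signal against the level of untargeted controls it was at least 236-fold lower in siliques. SWEET9, the sucrose exporter of nectaries, had 12.7 and 16.7 in siliques and 1272 and 1539 in flowers (log2 change -5.84 ± 0.46, adjusted p = 0.00218). JMT, which makes the volatile methyl jasmonate, had 19.7 and 22.4 in siliques and 376 and 942 in flowers (log2 change -4.29 ± 0.43, adjusted p = 0.00379). All 3 were low in siliques and far above in flowers, and in buds CYP71B31 and SWEET9 were low, at 23.5 and 0.242 and 47.0 and 9.26, while JMT was at 166 and 283.

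Further genes were called lower in siliques. AT3G25810, fixed among the markers of petals, stamens and nectaries, had 6.83 and 6.75 in siliques and 410.0 and 537 in flowers, at least 60.3-fold lower in siliques (log2 change -4.83 ± 0.34, adjusted p = 0.00155). The cytochrome P450 CYP71B38 had 7.28 and 5.33 in siliques and 119 and 131 in flowers, at least 16.1-fold lower (log2 change -3.05 ± 0.27, adjusted p = 0.00285). CYP78A9, a P450 that promotes fruit growth, had 22.2 and 22.7 in siliques and 83.0 and 88.3 in flowers (log2 change -1.56 ± 0.22, adjusted p = 0.0101), and 6.15 and 6.61 in buds. These P450 genes were lower in siliques without overlap, and they are the 3 called of 6 P450 genes tested, none of which rose. LPR1, a ferroxidase known from the phosphate response of roots, had 31.2 and 40.5 in siliques and 520.2 and 652 in flowers (log2 change -3.70 ± 0.23, adjusted p = 0.00154). ARPN, the small copper protein plantacyanin of the transmitting tract and anther, had 69.0 and 49.9 in siliques and 490.3 and 553 in flowers (log2 change -2.95 ± 0.18, adjusted p = 0.00154). Of these genes only CYP78A9 lost its call, without siliques 1, flowers 1 or flowers 2 (adjusted p 0.0633 to 0.0886).

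Transcription factors of the basic helix-loop-helix family included some of the steepest falls. UPB1, a repressor of peroxidase genes in roots, had signals of 12.6 and 29.0 in siliques and 438 and 519 in flowers (log2 change -4.04 ± 0.37, adjusted p = 0.00306). CES, a brassinosteroid factor also known for its part in the transmitting tract, had 50.7 and 36.2 in siliques and 482 and 472 in flowers (log2 change -3.20 ± 0.18, adjusted p = 0.00136). AT1G59640, the BIGPETAL locus listed under the symbol BPEp, encodes a factor that limits petal growth. Its probe set was matched to the locus and not to 1 of its transcripts, and it had 12.1 and 5.13 in siliques and 99.6 and 78.5 in flowers (log2 change -2.43 ± 0.27, adjusted p = 0.00523). Siliques were the lower group on every array, and in buds this locus was near its flower level, at 88.4 and 127, whereas UPB1 was low, at 38.4 and 15.3.

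Milder changes in the family were a fall of LHW, a factor of vascular patterning, with 103 and 122 in siliques and 182 and 186 in flowers (log2 change -0.66 ± 0.17, adjusted p = 0.0457), and a rise of bHLH115, a factor of iron uptake, with 229 and 198 in siliques and 132 and 134 in flowers (log2 change 0.64 ± 0.15, adjusted p = 0.0356). Of the 11 family members tested, 1 rose and 4 fell, with a median of −0.19, and ALC joined the rises with the replicate block (adjusted p = 0.0441). In the fit without it the carpel factors ALC (0.59) and SPT (-0.19) did not pass. Limma called none of 7 MADS-box genes tested, with log2 changes of −0.95 to 0.54. An unadjusted p under 0.05 was reached by 2 of the 7, against 3813 of all 12075 tested probe sets. TCP15, a factor of the TCP family that governs cell proliferation, had 315 and 359 in siliques and 177 and 183 in flowers (log2 change 0.86 ± 0.14, adjusted p = 0.0159). UPB1, CES and BIGPETAL kept their calls throughout. The call ended for LHW, bHLH115 and TCP15 without any 1 of the 4 silique and flower arrays (adjusted p 0.0691 to 0.212), and with other settings for LHW and bHLH115 under at least 1 of no filter, median normalization, quantile normalization and no intensity trend (adjusted p 0.0510 to 0.0692).

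Of the 6 pollen markers tested, the 3 called lower in siliques were ANX2, MGH3 and AT4G39110. AGL66 (-0.93), AGL104 (-0.59) and ACT12 (-0.60) did not pass, with adjusted p of 0.179, 0.220 and 0.191. ANX2, a receptor kinase that keeps the growing pollen tube intact, had signals of 19.6 and 40.8 in siliques and 111 and 151 in flowers (log2 change -1.85 ± 0.40, adjusted p = 0.0323). MGH3, a histone H3 of the male germline, had 4.40 and 18.1 in siliques and 57.3 and 60.5 in flowers (log2 change -1.78 ± 0.40, adjusted p = 0.0356), and was highest in buds, at 206 and 103. AT4G39110, on the pollen marker list, had 26.9 and 61.2 in siliques and 184 and 179.5 in flowers (log2 change -1.90 ± 0.38, adjusted p = 0.0258). For each of the 3, siliques 2 was higher than siliques 1 and both were under the flower arrays.

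PLIM2b, an actin-bundling protein of pollen, showed the same order, with 78.4 and 111 in siliques and 262 and 202 in flowers (log2 change -1.22 ± 0.31, adjusted p = 0.0469). MGH3 was the only called gene of 6 histone genes tested. Calls ended for ANX2, RALFL25, RALFL26 and PLIM2b without any 1 of the 4 silique and flower arrays, and AT4G39110 and MGH3 without siliques 1, flowers 1 or flowers 2 (adjusted p 0.0558 to 0.216). Processing ended those of RALFL25, ANX2, MGH3, RALFL26 and PLIM2b under at least 1 of an offset of 1, no filter, quantile normalization, cyclic loess normalization, no intensity trend and robust shrinkage (adjusted p 0.0503 to 0.0796).

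Among transporters, several sugar channels and members of the NRT1/PTR family were called lower in siliques. Of 12 tested genes listed under a SWEET symbol, which encode sugar channels, 1 rose, 5 fell and 6 were not called, with a median log2 change of −1.43. With the replicate block SWEET17 rose too (log2 change 1.00, adjusted p = 0.0186). The count leaves out SAG29, a sugar transporter listed with the senescence genes, which the block called lower (log2 change -1.99). SWEET11, a sucrose exporter of phloem and seeds, had signals of 124 and 262 in siliques and 873 and 864 in flowers (log2 change -2.20 ± 0.34, adjusted p = 0.0132). SWEET1, a glucose channel, had 298 and 278 in siliques and 845 and 885 in flowers (log2 change -1.55 ± 0.13, adjusted p = 0.00260). SWEET3 had 23.5 and 11.8 in siliques and 84.9 and 84.5 in flowers (log2 change -1.81 ± 0.22, adjusted p = 0.00671), and was highest in buds, at 307 and 311.

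SWEET4 fell too, with 265 and 291 in siliques and 635 and 776 in flowers (log2 change -1.31, adjusted p = 0.0126). SWEET7 was the exception, with 223 and 198 in siliques and 79.0 and 67.6 in flowers (log2 change 1.40 ± 0.17, adjusted p = 0.00724), and it was as bright in buds, at 349 and 275. SWEET13 and SWEET14 did not pass despite log2 changes of -2.55 and -2.35 (adjusted p = 0.0510 and 0.0766). Their flower arrays were far apart, at 132 and 371 for SWEET13 and 80.4 and 222 for SWEET14.

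The NRT1/PTR family carries nitrate, peptides, hormones and glucosinolates. Of 6 members tested, 5 fell and none rose, and all 6 had a negative change. GTR2, which with GTR1 loads glucosinolates into seeds, had 115 and 194 in siliques and 414 and 387 in flowers (log2 change -1.36 ± 0.24, adjusted p = 0.0183). GTR1 had 205 and 191 in siliques and 307 and 309 in flowers (log2 change -0.61 ± 0.15, adjusted p = 0.0450). Both importers were lower in buds than in flowers as well, at 89.0 and 91.9 for GTR2 and 183 and 149 for GTR1. NPF6.4, NPF6.2 and NPF3.1 had log2 changes of -1.06, -0.94 and -1.31. OCT1, an organic cation and carnitine transporter, had 40.5 and 36.4 in siliques and 171 and 157 in flowers (log2 change -1.84 ± 0.21, adjusted p = 0.00593). SWEET9, SWEET1, SWEET3 and OCT1 kept their calls throughout. Leaving out arrays ended the call for SWEET4 and SWEET7 without siliques 1 or flowers 2, GTR2 and NPF6.2 without siliques 1, flowers 1 or flowers 2, NPF6.4 and NPF3.1 without siliques 1, siliques 2 or flowers 2, GTR1 without any 1 of the 4 silique and flower arrays, and SWEET11 without flowers 1 or flowers 2 (adjusted p 0.0542 to 0.197). Other processing ended that of GTR1 and NPF6.2 under at least 1 of no filter, quantile normalization and no intensity trend (adjusted p 0.0524 to 0.0699).

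Several enzymes of primary metabolism were called, some picked for description after their values were seen. FDH, formate dehydrogenase, had signals of 184 and 424 in siliques and 1144 and 1529 in flowers (log2 change -2.20 ± 0.37, adjusted p = 0.0166). PPDK, which regenerates phosphoenolpyruvate from pyruvate, had 81.5 and 222 in siliques and 806 and 688 in flowers (log2 change -2.37 ± 0.55, adjusted p = 0.0369). LKR/SDH, the bifunctional enzyme of lysine breakdown, had 51.5 and 96.0 in siliques and 436 and 227 in flowers (log2 change -2.01 ± 0.42, adjusted p = 0.0296). For all 3 the silique arrays lay apart, siliques 1 below siliques 2, and both were under the flower arrays.

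AIM1, an enzyme of peroxisomal beta-oxidation, had 297 and 280.3 in siliques and 661 and 794 in flowers (log2 change -1.30 ± 0.17, adjusted p = 0.00863). The succinate dehydrogenase subunit SDH1-1 had a log2 change of -0.69. Rises came from ATP citrate lyase, the source of cytosolic acetyl-CoA. Its subunit ACLB-1 had 689.6 and 617 in siliques and 330.0 and 383 in flowers (log2 change 0.86 ± 0.16, adjusted p = 0.0219), and ACLA-2 had a log2 change of 0.64, which makes 2 of 4 subunit genes higher and none lower. The starch branching enzyme SBE2.2 also rose (0.79), 1 of 4 starch genes tested, none of which fell.

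Of 7 tested genes of seed storage and dehydration, 2 fell, none rose and 5 were not called. COR47, a dehydrin, had 308 and 366 in siliques and 2475 and 2396 in flowers (log2 change -2.82 ± 0.46, adjusted p = 0.0161). COR15A, a chloroplast protein of cold acclimation, had 43.9 and 13.5 in siliques and 111 and 103 in flowers (log2 change -1.72 ± 0.36, adjusted p = 0.0290), and 369 and 358 in buds. COR15B and AT2G44060 had positive changes of 0.57 and 0.58 that did not pass (adjusted p = 0.383 and 0.0747), and with the replicate block AT2G44060 passed as higher (0.0410). Outside that list the drought-induced genes DI21 and DI19 had log2 changes of -1.50 and -0.97, and the bright gene AILP1 of -1.25. None of the metabolic and stress genes named here kept its call without every array. Calls ended for LKR/SDH, SDH1-1, ACLB-1, ACLA-2, COR47, DI19 and AILP1 without any 1 of the 4 silique and flower arrays, PPDK and SBE2.2 without siliques 1, flowers 1 or flowers 2, FDH and COR15A without flowers 1 or flowers 2, AIM1 without siliques 1 or flowers 2, and DI21 without siliques 1 (adjusted p 0.0530 to 0.198). Processing ended those of PPDK, LKR/SDH, SDH1-1, ACLA-2, SBE2.2, COR15A and AILP1 under at least 1 of no filter, quantile normalization, cyclic loess normalization and no intensity trend (adjusted p 0.0503 to 0.0674).

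Cytoskeletal genes changed in both directions. The tubulin genes TUB6 and TUA6 rose. TUB6 had signals of 511 and 373 in siliques and 229 and 216 in flowers (log2 change 0.94 ± 0.19, adjusted p = 0.0269), and TUA6 had 1907 and 2010.2 in siliques and 1247 and 1377 in flowers (log2 change 0.58 ± 0.13, adjusted p = 0.0361). TUA1, an alpha-tubulin gene known from pollen, fell, with 154 and 209.6 in siliques and 379.9 and 396 in flowers (log2 change -1.07 ± 0.26, adjusted p = 0.0412). These were the called members of 9 tubulin and actin genes.

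IQ-domain proteins bind calmodulin, and many sit on microtubules; of 10 tested 3 rose and 1 fell (median 0.58). IQD30 had 184 and 137 in siliques and 71.3 and 81.1 in flowers (log2 change 0.97 ± 0.18, adjusted p = 0.0209), and IQD28 and IQD31 had log2 changes of 0.79 and 0.69. IQD19 had 28.1 and 29.2 in siliques and 75.7 and 143 in flowers (log2 change -1.57 ± 0.27, adjusted p = 0.0181), and was at 112 and 122 in buds. Of the SPIRAL1-like microtubule proteins, SP1L3 rose (0.58) and SP1L4 fell, with 105 and 201 in siliques and 482 and 484 in flowers (log2 change -1.66 ± 0.43, adjusted p = 0.0468, and 0.0555 with the replicate block, which ends the call). Calls ended for TUA6, TUA1, IQD28, IQD31, SP1L3 and SP1L4 without any 1 of the 4 silique and flower arrays, TUB6 and IQD30 without siliques 1, flowers 1 or flowers 2, and IQD19 without siliques 1, siliques 2 or flowers 2 (adjusted p 0.0575 to 0.214). Processing ended those of SP1L4, TUA6, TUA1 and SP1L3 under at least 1 of an offset of 1, no filter, quantile normalization, cyclic loess normalization, no intensity trend and robust shrinkage (adjusted p 0.0507 to 0.112).

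**Figure D4:**
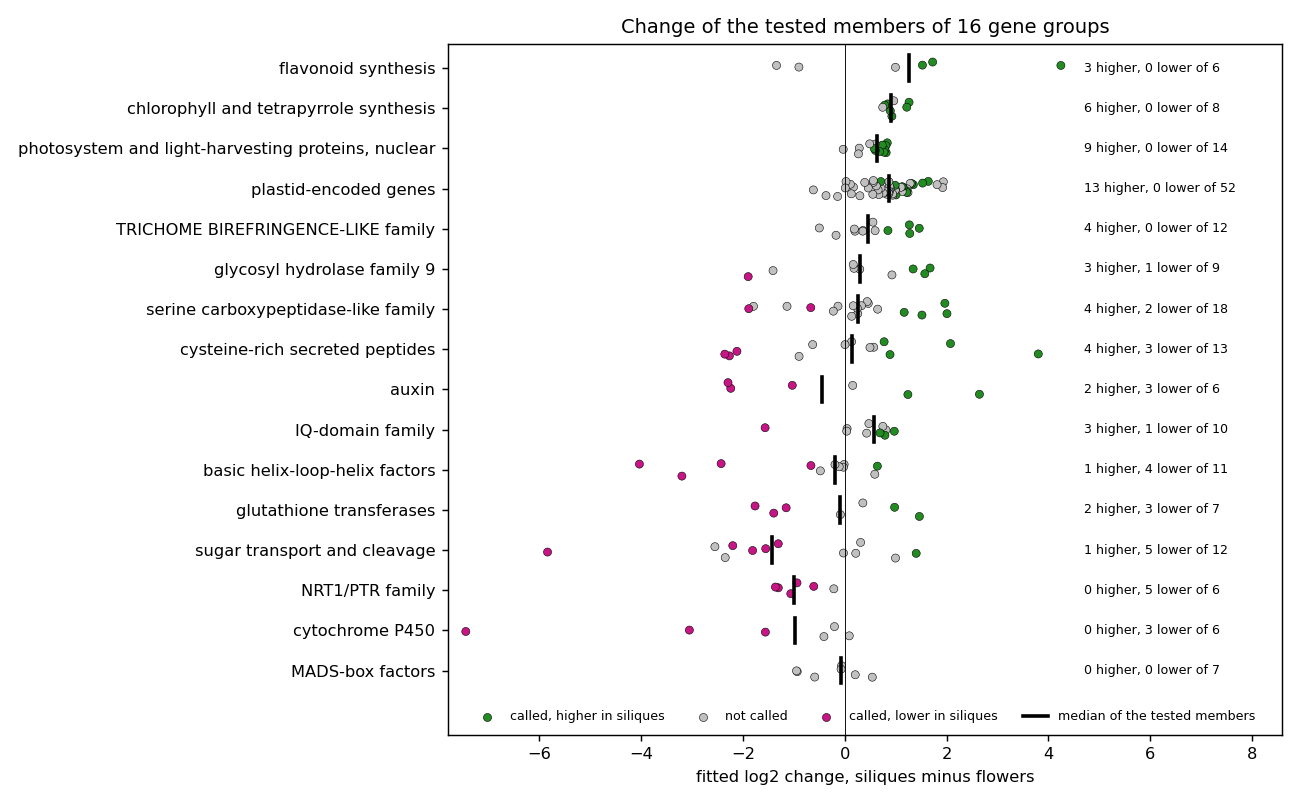
Fitted log2 change (siliques minus flowers) of every tested member of 16 gene groups, 1 point per gene, with green for called higher, grey for not called, magenta for called lower and a black bar at the median of the tested members. Chlorophyll synthesis (median 0.91) and the nuclear photosystem and thylakoid genes (0.64) are narrow and to the right of 0. The bars of sugar transport (−1.43) and of the NRT1/PTR family, with 5 of 6 members called lower, lie to the left of 0.

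Several of the largest changes belonged to loci for which the gene tables held no name, picked after their values were seen. AT2G38900 had signals of 731 and 908 in siliques and 1.83 and 16.0 in flowers (log2 change 5.56 ± 0.37, adjusted p = 0.00154). AT5G38195 had 420.2 and 284 in siliques and 4.66 and 0.836 in flowers, at least 40.4-fold higher in siliques (log2 change 4.82 ± 0.28, adjusted p = 0.00136). AT2G30810 had 486 and 345 in siliques and 11.1 and 3.69 in flowers (log2 change 4.63 ± 0.30, adjusted p = 0.00154). In buds all 3 were at or below 8.25.

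AT4G15750 was among the brightest rises, with 2411 and 2920.1 in siliques and 64.8 and 229.5 in flowers (log2 change 4.31 ± 0.49, adjusted p = 0.00541). AT5G47350 had 1723 and 2222 in siliques and 95.3 and 209 in flowers (log2 change 3.69 ± 0.34, adjusted p = 0.00315). AT1G56100 had 1368 and 1350.0 in siliques and 157 and 129 in flowers (log2 change 3.17 ± 0.15, adjusted p = 0.000904), and 0.331 and 0.296 in buds. All 3 were already measurable in flowers and much lower in buds.

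In the opposite direction AT1G70720 had 2.34 and 4.09 in siliques and 433 and 785 in flowers, at least 74.9-fold lower in siliques (log2 change -5.49 ± 0.37, adjusted p = 0.00155). AT4G12530 had 6.37 and 9.56 in siliques and 366 and 565 in flowers (log2 change -4.70 ± 0.30, adjusted p = 0.00154). AT1G76240 had 30.5 and 41.5 in siliques and 537 and 859 in flowers (log2 change -3.92 ± 0.25, adjusted p = 0.00154). The highest silique signal of these 3 loci was 41.5 and the lowest flower signal 366. AT2G33850 had 32.9 and 2.01 in siliques and 627 and 220.3 in flowers (log2 change -4.08 ± 0.66, adjusted p = 0.0153), the only one of these 10 loci to lose its call, without flowers 1 (adjusted p 0.0722).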

How the data were processed

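Total RNA was labelled with biotin and hybridised to Affymetrix ATH1 arrays, 1 per sample, as the labels state. Each probe set has 1 deposited value, an intensity computed with MAS5 per the submitters' processing notes and not log transformed. The version and settings of MAS5 are not given in the sources used here. The deposited intensities had nearly the same trimmed mean on every array, 100.01, so no further scaling was applied. The number of arrays limits the precision.

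Of 22810 probe sets 64 controls were dropped. log2 was taken after adding 10 to each signal, and 12075 probe sets with a signal of at least 50 on 2 or more of the 6 arrays were tested, with 10671 below. Linear models in limma 3.58.1 (R 4.3.3) covered all 6 arrays as 3 groups, with variances moderated along an intensity trend by eBayes; 3 degrees of freedom remained, and the median prior added 3.61. P-values were two-sided, adjusted by Benjamini and Hochberg's method over all 12075 probe sets, and called under 0.05. Adding 10 shrinks the fitted change of dim probe sets. A gene whose dimmer stage stayed on both arrays within the highest of 27 control probe sets without a target (7.20 to 10.1 by array) has its linear fold given as a bound against that level. In simulated data with 200 of 12075 probe sets changed, the script found 60.1% of 2-fold and 97.8% of 4-fold changes, with 6.77% false calls. The reported comparison had 1773 calls, far more than the 200 changed there. Its own rates of found changes and false calls were not tested.

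Equal replicate numbers mark the same run, since the labels report a full repeat of the experiment, so they pair the samples. The replicate differences of siliques and flowers correlated at 0.174 across probe sets. The replicate block was run as an alternative.

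Genes came from the platform annotation and from RefSeq names on assembly TAIR10.1, which also gave the neighbouring genes: 6298 tested probe sets had 1 gene (6258 genes), and 1015 of these a symbol or name. Lists were matched by symbol or full name, and 34 of 44 had a tested member. The comparison, the lists and the genes were chosen with earlier results of these data known. Named genes were the 15 largest rises and falls, the 8 largest rises and falls of mean signal, and up to 6 called members per list, among called genes with a symbol or name whose arrays did not overlap. Corrections to list membership by gene identity, the groups formed from shared symbols (endoglucanases, TRICHOME BIREFRINGENCE-LIKE, carboxypeptidases, IQ-domain, NRT1/PTR, tetraspanins, ATP citrate lyase, NADH dehydrogenase-like complex), members of these groups, genes named although not called, loci without a name and the neighbouring pairs were picked once their values had been seen. The same holds for list members beyond the first 6 and for SKU5, COB, ATMDAR2, GR1, SRX, CaS, TCP15, PLIM2b, OCT1, AIM1, SDH1-1, LKR/SDH, DI21, DI19, SP1L3, SP1L4, APA1 and AT3G25810. Sequences are not shown. Figures were drawn with matplotlib 3.10.9.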

Additional observations from a re-analysis of the deposited data

How the results depend on the processing

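Alternatives were another offset, filter or normalization, a fit of 4 arrays, the replicate block, other variance moderation and leaving out each array. No direction reversed for the 96 genes named by rule. Calls lower outnumbered calls higher by 900 to 873, whereas calls higher were the more numerous with the stricter filter (846 against 761), median normalization (951 against 881), quantile normalization (746 against 695), the replicate block and robust shrinkage (874 against 854). With no filter, 533 probe sets were called higher and 1162 in all, against 873 and 1773 with it. Leaving out 1 array at a time gave 80 to 970 calls higher, 166 to 1066 lower and 251 to 2036 in all, the low values without a silique or flower array, where the lone array left in its group is assumed to vary like the others. Under the remaining alternatives the counts ran from 690 to 1136 higher and 695 to 1063 lower. With the replicate block there were 1136 calls higher and 1054 lower, 2190 in all, of which 1717 were among the 1773. The block ended the calls of RALFL25, GSTU20, rpoC1, psaC, psaA and SP1L4 and of no other gene called in the report. Among genes named in the report it added those of UGT78D1, UGT78D2, UF3GT, PRK, SBPASE, HEMB1, PORB, ALC, YAB3, AT2G44060, XTH32, EXLA1, SWEET17 and SAG29. List members not named elsewhere also gained calls, such as rpl33, rpl36, psbZ and LHCB4.1. With the block 11 of the 14 nuclear photosystem and thylakoid genes and 13 of the 52 plastid-encoded genes were higher and none lower. The share of higher calls was 49.2%, and with every array kept it ran from 43.6% with cyclic loess normalization to 52.6% with the stricter filter. Over the 96 genes and all alternatives, 335 values were no longer past the threshold and 1288 kept their side of it. The causes of these changes were not tested. Signals within the range of untargeted controls (7.20 to 10.1) have no order.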

Other observations

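Tetraspanins, membrane proteins that organise surface complexes, were called in both directions, but the fall was that of a gene dim in both stages. TET2 had signals of 118 and 87.2 in siliques and 40.0 and 50.7 in flowers (log2 change 1.02 ± 0.20, adjusted p = 0.0240). TET7 had 309 and 241 in siliques and 182 and 156 in flowers (log2 change 0.67 ± 0.17, adjusted p = 0.0477). TET15 had 3.97 and 0.621 in siliques and 18.6 and 18.8 in flowers (log2 change -1.24 ± 0.26, adjusted p = 0.0297), against 234 and 169.6 in buds. The silique arrays were within the range of untargeted controls for TET15, so by linear signal it was at least 2.40-fold lower in siliques. Of 8 tested, 2 rose and 1 fell.

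Senescence and autophagy genes did not move past the test: limma called 0 of 12, against 14.7% of all tested probe sets. An unadjusted p under 0.05 was reached by 4 of the 12, against 3813 of all 12075 tested. Of the 12 genes, 11 had a negative change, with a median log2 change of −0.34 against 0.02 over all tested probe sets. The one furthest from 0, SAG29, known as a sugar transporter of senescing tissue, had 56.8 and 251 in siliques and 414 and 639.6 in flowers (log2 change -1.99, adjusted p = 0.0676), with the 2 silique arrays far apart. With the replicate block SAG29 passed as lower in siliques, with an adjusted p of 0.0280.

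Another pair of neighbouring genes changed in opposite directions. GT72B1, a glycosyltransferase of the UGT type that conjugates phenolics, had 85.6 and 113 in siliques and 219 and 202 in flowers (log2 change -1.02 ± 0.17, adjusted p = 0.0159). Its neighbour TBL26 had 468 and 496 in siliques and 155 and 242 in flowers (log2 change 1.27 ± 0.23, adjusted p = 0.0195).

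Of the tetraspanins and this pair, the call ended for TET2 and GT72B1 without siliques 1, flowers 1 or flowers 2, TET7 without any 1 of the 6 arrays, TET15 without any 1 of the 4 silique and flower arrays, and TBL26 without siliques 1, siliques 2 or flowers 1 (adjusted p 0.0565 to 0.218), and with other processing for TET15 and TET7 under at least 1 of an offset of 32, no filter, quantile normalization, cyclic loess normalization, a fit of the silique and flower arrays alone and no intensity trend (adjusted p 0.0525 to 0.0749).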
